A study of Macaca mulatta with 449 samples.

Results

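The genes described here encode the pore-forming alpha subunits of voltage-gated potassium (Kv) channels. They were chosen by symbol from the KCNA to KCNV families, without reference to their values: of 34 symbols, 28 were matched to a row of the count table, which holds 30807 genes. The symbols KCNA1, KCNA6, KCND3, KCNF1, KCNG3 and KCNV2 were not matched and are not analysed here. The names of 25 members came from a reference table of gene names. Those of KCNA2, KCNA4 and KCNS2 came from tables of the study that list genes selected on these same samples, so their regional pattern is not independent of that choice.

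Total RNA depleted of ribosomal RNA was sequenced from 51 brain sub-regions of 8 rhesus macaques, with 1 library for each sub-region of each animal. The animals were 4 males (Rhesus 2 and 3, mid-aged, both 10 years old; Rhesus 7 and 8, young, 4 and 3.8 years) and 4 females (Rhesus 6 and 11, mid-aged, 10 and 9.8 years; Rhesus 4 and 10, young, 3.2 and 5 years). The 51 sub-regions were put into 16 region groups. The cortex (31 sub-regions), hippocampus (HIP, 3: dentate gyrus, CA1 and CA3), striatum (STR, 3: accumbens nucleus, caudate nucleus and putamen) and cerebellum (CB, 2: cerebellar cortex and vermis) pooled several sub-regions of each animal. The other 12 groups were 1 sub-region each: amygdala (AMY), corpus callosum (CC), globus pallidus (GP), hypothalamus (HTHA), medulla oblongata (MO), olfactory bulb (OB), the joined entorhinal and perirhinal cortex (PA), pituitary (PIT, named pituitarium in the labels), pons (PON), substantia nigra (SN), thalamus (THA) and ventral tegmental area (VTA). Each sample is a dissected piece of tissue with all its cell types, so fewer cells of a type and less RNA per cell cannot be told apart in any of the values below.

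Kv channels open when the membrane depolarises and let potassium leave the cell, which ends the action potential and sets how soon the next one can follow. A channel is a tetramer of alpha subunits, and subunits mostly combine within a subfamily: Shaker (KCNA), Shab (KCNB), Shaw (KCNC), Shal (KCND), KCNQ, and the EAG, ERG and ELK group (KCNH). The KCNG, KCNS and KCNV subunits form no channel alone and are called silent, since they act by joining Shab subunits and changing their gating. Neurons of different regions use different sets of these genes, from the fast-spiking cells that depend on Shaw channels to the slow M-current of KCNQ subunits that limits repetitive firing.

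Libraries held 7784678 to 31083490 counts (median 10698602). Levels are CPM, counts scaled to a common library total after TMM adjustment of library sizes, given as the lowest, median and highest of the 8 animals, and with no gene lengths at hand they are compared between regions and not between genes. Over 14771 genes, libraries correlated with the mean of their own sub-region at a median r of 0.984. Of all libraries, 6 were nearer to another region group, and 2 of these by more than 0.02. The medulla library of Rhesus 6 was nearer to CC (r 0.952) than to the other MO libraries (0.896), and held 115.9 CPM of the neuronal gene SNAP25 where the other 7 held 1775 to 4132. The hypothalamus library of Rhesus 6 was nearer to the superior temporal gyrus (0.982 against 0.945). The cerebellar cortex library of Rhesus 4 also stood apart from its own sub-region (0.906). Its posterior and anterior cingular libraries correlated weakly with theirs too (0.906 and 0.921), with AMY (0.888) and PA (0.918) close behind. Both belong to the limbic lobe, and the lobes were also tested without Rhesus 4. All libraries were kept. Those of the medulla, hypothalamus and cerebellar cortex are the 3 libraries described below as standing apart. Without them all 260 calls described next remained, and values that they moved are given beside the results.

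Apart from the HTHA and MO libraries of Rhesus 6 and the cases given below, marker lists of cell types followed the labelled tissues. The mean log2(CPM + 1) of 8 neuronal markers was 9.31 to 9.44 in the cortex, 3.96 to 5.32 in CC, 4.39 to 4.96 in PIT, 5.79 to 7.15 in GP and 4.11 to 8.44 in MO. That of 5 oligodendrocyte markers was 7.12 to 7.53 in the cortex, 12.4 to 12.7 in CC, 11.5 to 12.4 in GP and 1.25 to 2.18 in PIT. Markers of the anterior pituitary reached 9.86 to 11.3 in PIT and at most 2.59 elsewhere, and markers of cerebellar granule cells 9.50 to 9.78 in CB and at most 3.03 elsewhere. Markers of the neocortical layers reached 4.47 in the accumbens nucleus and 3.73 in the putamen, against at most 0.883 in the caudate nucleus. Oligodendrocyte markers were 7.57 to 10.94 in HTHA, highest in Rhesus 3, whose HTHA library was nearer to VTA (r 0.966) than to HTHA (0.952). Marker levels are also given beside several results below, and the part of cell composition in any result was not tested.

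To ask how the members differ between the cortex and the rest of the brain, each of the 15 other region groups was compared with the cortex (edgeR quasi-likelihood F test with the animal as a block, Benjamini-Hochberg FDR < 0.05 over all 16829 genes tested, and a fold above 2). All 28 members passed the filter on low counts. The 15 comparisons share the cortex libraries, so each stands on its own and none is evidence for another. Of 420 pairs of a member and a region group, 45 were higher than the cortex and 215 were lower, where 12.3% and 12.2% of such pairs were over all genes. By this rule 13 members (46.4%) were in no region group higher than the cortex, among them all 3 of the KCNQ subfamily, a share near the 51.8% of all genes. In none lower were 3 members (KCNA5, KCND1 and KCNQ1, 10.7%), against 57.8% of all genes.

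**Figure D1:**
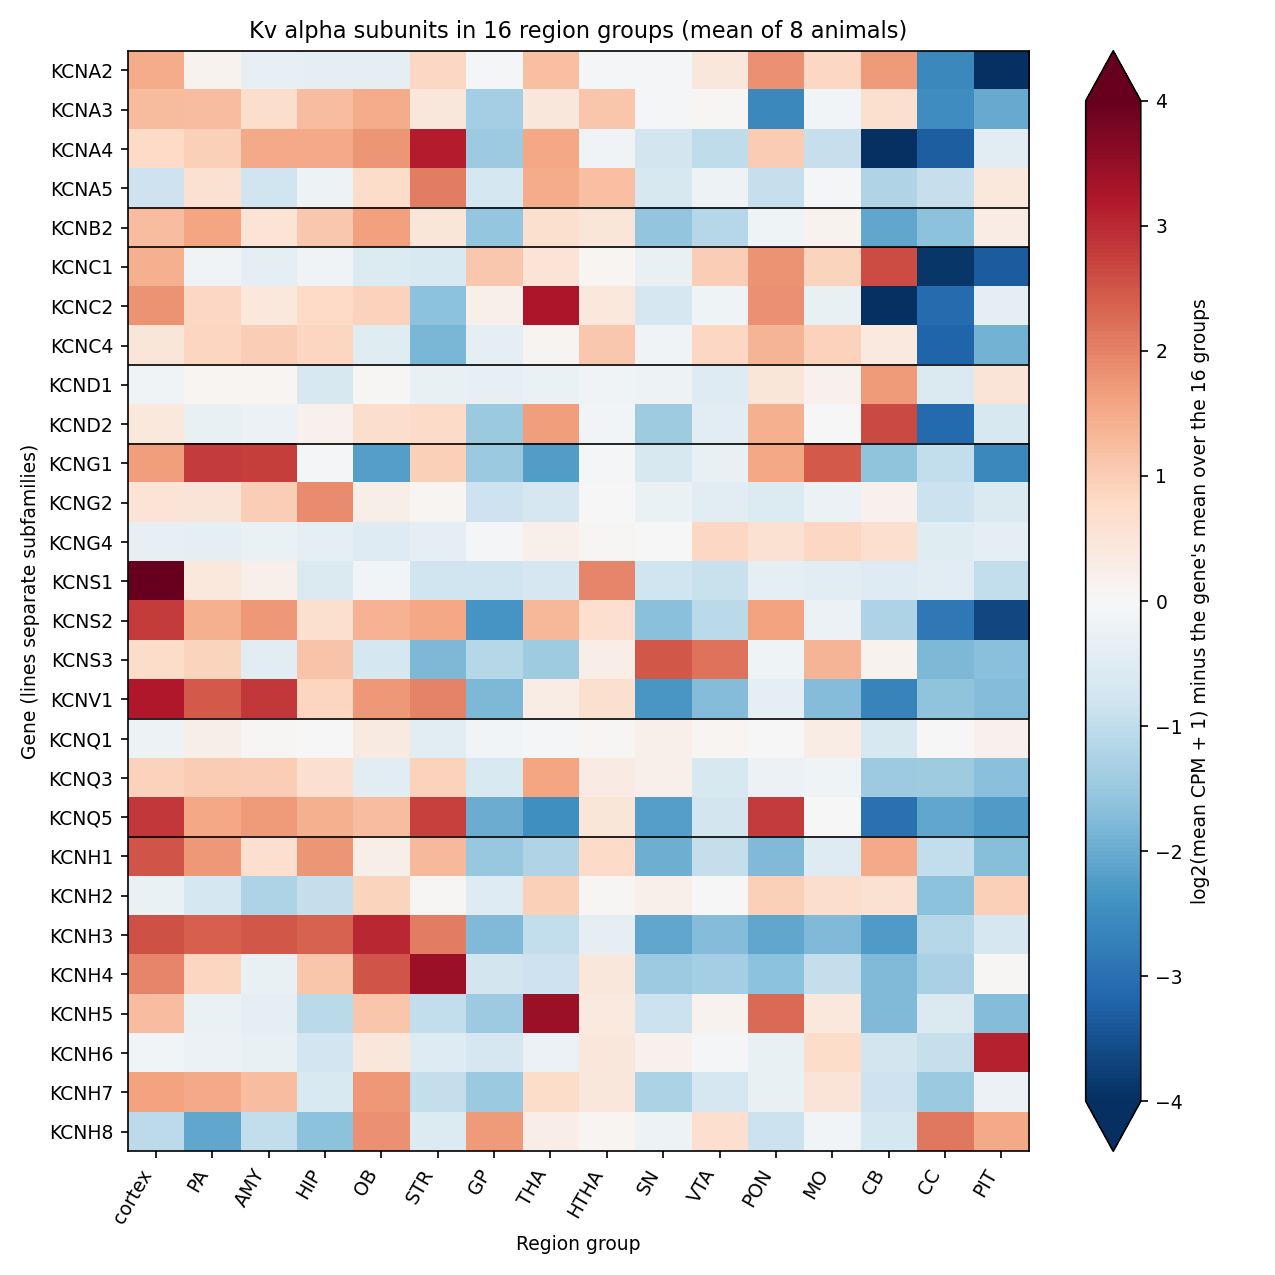
Level of each of the 28 matched members (rows, with lines between subfamilies) in the 16 region groups (columns), as log2 of the mean CPM of 8 animals + 1 minus the mean of that gene over the groups. Blocks of low values stand in CC and PIT, and single high cells mark members such as KCNA4 in STR, KCNH5 in THA and KCNH6 in PIT.

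CC and PIT, the groups with the lowest neuronal marker levels, each left 3 members in neither direction. In CC 1 member (KCNH8) was higher and 24 of 28 (85.7%) were lower, where 20.2% of all genes were higher and 24% lower, and the median log2 fold change (log2FC) of the members was -4.0. KCNA5, KCND1 and KCNQ1 were in neither direction there. PIT held 4 higher and 21 lower members (75.0%), beside 21.4% and 23.3% of all genes, with a median of -2.37. GP held 1 higher and 20 lower members (71.4%), beside 17% and 17.8% of all genes, with a median of -2.43. The median over all genes lay between -0.03 and 0.03 in each of the 15 comparisons. The neuronal marker list was also low in GP, as given above, and choroid plexus markers were highest in CC (4.38 to 7.34, against 1.05 to 1.94 in the cortex).

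In the ventral midbrain and brain stem the losses were fewer. SN held 2 higher and 18 lower members, against 14.4% and 13.6% of all genes. VTA held 4 higher and 17 lower, against 14.8% and 13.6%. PON held 3 higher and 12 lower, against 11.6% and 13.3%, and its members' median log2FC of -0.20 was the nearest to 0 of the 15 groups. MO held 4 higher and 14 lower, against 15.8% and 12.5%, and 18 of the 28 members had their lowest MO level in the library of Rhesus 6 that stood apart.

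Among the other deep structures THA had the most higher members, 7 of 28 against 9.81% of all genes, with 11 lower against 9.92%. In HTHA 3 were higher and 12 lower, against 11.0% and 7.62% of all genes, and 18 of 28 members had their highest HTHA level in the library of Rhesus 6. STR held 3 higher and 11 lower, against 8.73% and 8.18%. CB held 4 higher and 14 lower, against 10.8% and 14.9%.

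PA, AMY and HIP had the fewest calls of the 15 groups. AMY held 1 higher and 11 lower members, against 5.03% and 4.5% of all genes. HIP held 2 higher and 10 lower, against 6.05% and 6.31%. PA held 2 higher and 8 lower, against 5.51% and 3.4%. OB held 4 higher and 12 lower, against 12.5% and 9.94%. In each of the 15 groups the share of members that were lower exceeded the share of all genes that were lower, and members are few, so these shares are descriptions.

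**Figure D2:**
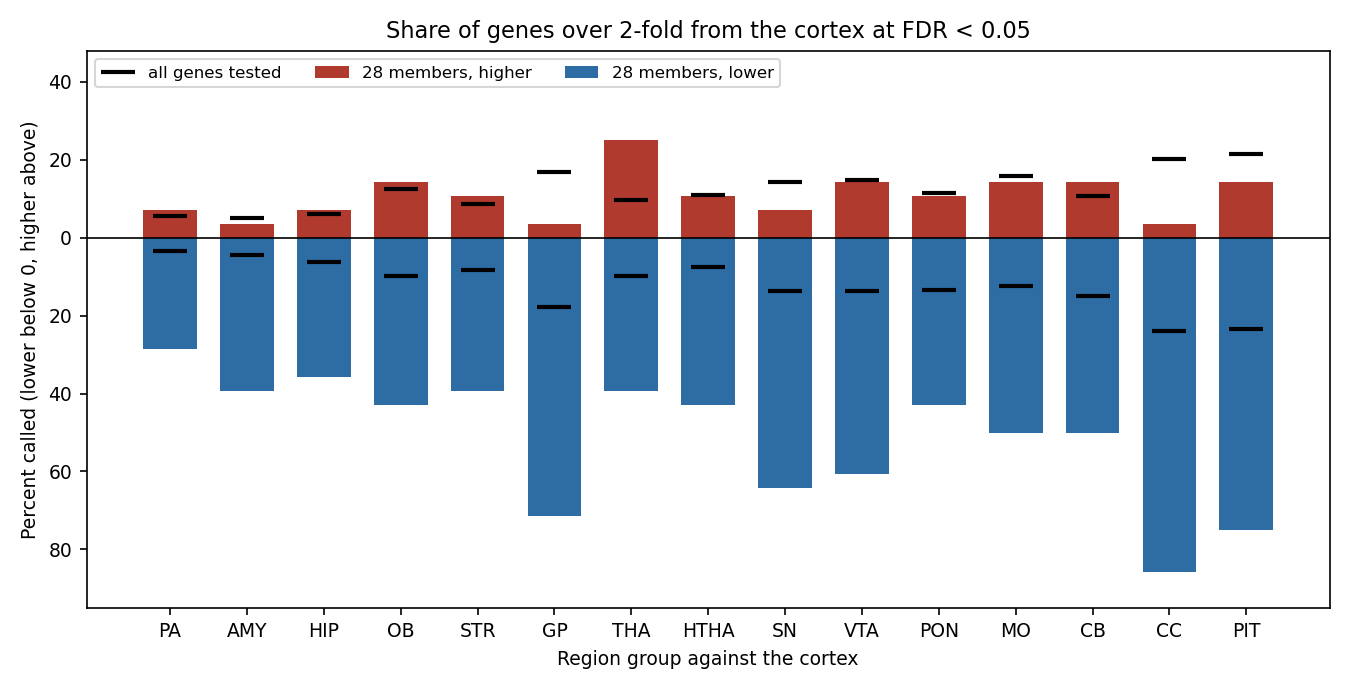
Percent of the 28 members and of all 16829 genes called higher (above 0) or lower (below 0) than the cortex in each of 15 region groups. The bars of members below 0 reach 85.7% in CC and 75.0% in PIT, against 24% and 23.3% of all genes, and the bars above 0 are highest in THA, at 7 of 28 members.

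A stricter question is which members stand above every other region group. At an FDR < 0.05 over the groups and a fold above 2 against each of the 15 others, 9 of 28 members were called for 1 region group, where 11.5% of all genes were. They were KCNA4 for STR, KCNC2 and KCNH5 for THA, KCND1 and KCND2 for CB, KCNG2 for HIP, KCNS1 and KCNS2 for the cortex, and KCNH6 for PIT. Each was highest in that group in 8 of 8 animals. KCNH4 in STR (log2FC 0.95 over OB) and KCNC1 in CB (0.89 over PON) fell just short of the 2-fold rule.

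**Figure D3:**
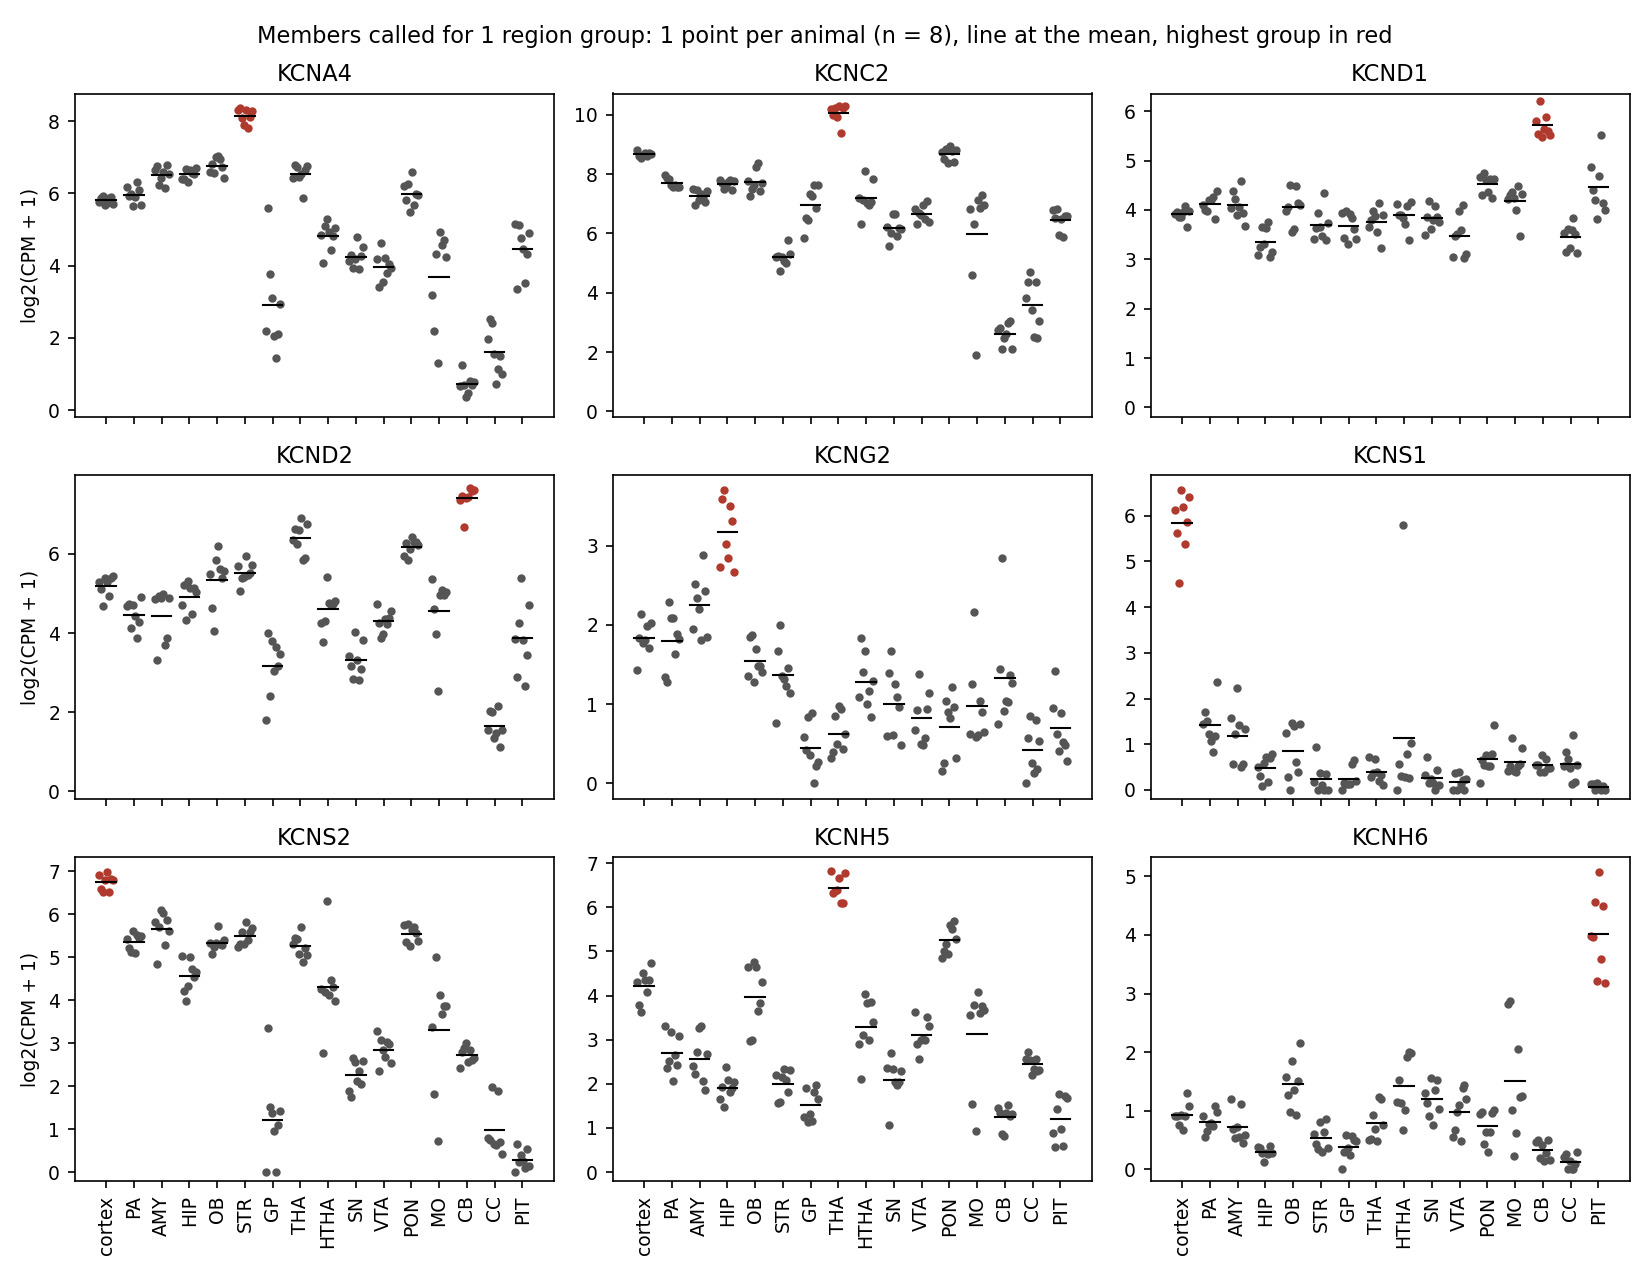
The 9 members called for 1 region group, as log2(CPM + 1) of each of 8 animals (points, with a line at the mean) in 16 region groups, the called group in red. The KCNS1 panel has 1 HTHA point, of Rhesus 6, that reaches the cortical levels, and the other HTHA points lie near 0.

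Of the Shaker subunits, KCNA4 encodes the fast-inactivating A-type channel. Its level in STR was 223, 293 and 328 CPM, against 50.5, 55.3 and 60.4 CPM in the cortex. Every striatal level was above every level of any other group, OB being next with 85.3, 109 and 129 CPM. KCNA4 was higher in STR than in the cortex by a log2FC of 2.34 ± 0.29 (SE, n = 8 animals, FDR 7.3e-12) and than in OB by 1.35 ± 0.28. Markers of striatal projection neurons were 8.89 to 9.35 in STR and 3.98 to 4.44 in the cortex, as mean log2(CPM + 1), and their part in this and the other striatal results was not tested. In CB KCNA4 was 0.292, 0.629 and 1.35 CPM, its lowest, with a log2FC of -6.26 ± 0.38.

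KCNA5, known for the ultrarapid delayed rectifier of heart and vascular muscle, had a low cortical level of 0.619, 1.01 and 1.47 CPM. It was higher than the cortex in 9 region groups and lower in none. STR was highest with 9.47, 13.9 and 17.4 CPM (log2FC 3.80 ± 0.26, FDR 1.0e-25). THA followed with 7.31, 8.74 and 11.3 CPM (3.14 ± 0.26). HTHA had 3.55, 7.17 and 9.88 CPM (2.86 ± 0.25), and PA 2.55, 4.53 and 6.72 CPM (2.13 ± 0.25). None of these 4 ranges overlapped that of the cortex, in 8 of 8 animals. STR exceeded THA by a log2FC of 0.66 ± 0.24 (edgeR F test, unadjusted p 0.0069), and their ranges overlapped. OB (2.30), PIT (1.89), MO (1.2), HIP (1.03) and VTA (1.02) were higher by smaller log2FC. The STR level pools unlike sub-regions (FDR over the sub-regions 4.8e-08). KCNA5 was 12.1, 21.9 and 26.6 CPM in the caudate nucleus and 14.7, 15.8 and 18.5 CPM in the accumbens nucleus, and the putamen was lowest. Markers of smooth muscle and pericytes had a mean log2(CPM + 1) of 4.25 to 5.25 in STR, 4.15 to 5.20 in THA, 3.81 to 5.19 in HTHA and 4.38 to 5.10 in the cortex, and their part was not tested.

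KCNA2, an axonal delayed rectifier, was 538, 783 and 928 CPM in the cortex and was higher nowhere. PON had 858, 949 and 1115 CPM and CB 594, 898 and 1033 CPM, and neither passed the test (log2FC 0.34 ± 0.21 in PON, FDR 0.16). It was lower in 10 groups, down to 27.3, 42.9 and 69.5 CPM in CC (-4.07 ± 0.24) and 4.21, 8.79 and 16.7 CPM in PIT (-6.22 ± 0.27). Along the order of the 16 groups, OB differed from CC and CC from PIT (unadjusted p < 0.05), and the other neighbouring groups did not. KCNA3, a Shaker subunit also known from lymphocytes and microglia, was 85.7, 108 and 122 CPM in the cortex and 99.99, 129 and 150 CPM in OB, a difference that did not pass the test. Its lowest levels were 2.99, 6.52 and 11.2 CPM in PON (-4.10 ± 0.27) and 2.52, 6.75 and 13.6 CPM in CC (-3.99), so the pons was at opposite ends for these Shaker genes. Microglial markers were 5.64 to 7.21 in CC, 5.00 to 6.19 in PON, 1.61 to 2.91 in PIT, where KCNA3 was also lower (-3.42), and 4.51 to 5.12 in the cortex, and their part was not tested.

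KCNB2, the only Shab member in the list and the kind of delayed rectifier that silent subunits join, was 9.16, 11.2 and 12.2 CPM in the cortex. It was lower in 8 groups and higher in none. CB was lowest with 0.0395, 0.174 and 0.418 CPM (log2FC -5.75 ± 0.33), and none of its animals reached 0.5 CPM. OB, with 9.82, 13.7 and 22.8 CPM, overlapped the cortex and did not pass the test (0.43 ± 0.23).

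The Shaw subunits give the high-threshold, fast-closing current of fast-spiking neurons, and the 3 members parted between CB, THA and PON. KCNC2 was 671, 1186 and 1258 CPM in THA against 373, 404 and 447 CPM in the cortex. The THA range lay above all other groups, with PON next at 330, 436 and 491 CPM. KCNC2 was higher in THA by a log2FC of 1.42 ± 0.26 than in the cortex (FDR 1.2e-06) and by 1.41 ± 0.26 than in PON. In CB it was 3.28, 5.36 and 7.35 CPM (-6.21 ± 0.32). The related KCNC1 went the other way there: 260, 314 and 373 CPM in CB against 108, 142 and 155 CPM in the cortex (1.24 ± 0.23, FDR 9.5e-07), with ranges that did not overlap. In CC KCNC1 was 0.833, 2.56 and 3.92 CPM (-5.82 ± 0.30). KCNC4, an inactivating Shaw subunit, was highest in PON with 83.6, 90.2 and 104 CPM against 42.4, 49.9 and 56.95 CPM in the cortex, a rise of 0.87 ± 0.20 that passed the FDR (8.4e-05) but not the 2-fold rule. KCNC4 was lower in 4 groups, OB, STR, PIT and CC. PVALB, the marker of fast-spiking interneurons that is also known from Purkinje cells, was 7.63 to 8.74 as log2(CPM + 1) in CB, 5.40 to 5.97 in the cortex and 0 to 0.37 in PIT.

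Both Shal members, which carry the somatodendritic A-type current, were called for CB, where granule cell markers were 9.50 to 9.78 against 1.19 to 1.75 in the cortex, with a part that was not tested. KCND2 was 102, 175 and 201 CPM in CB against 24.7, 38.01 and 42.8 CPM in the cortex (log2FC 2.28 ± 0.24, FDR 3.2e-15). THA came next with 56.2, 88.8 and 120 CPM (1.24 ± 0.23 over the cortex). CB exceeded THA by 1.04 ± 0.23, and their ranges overlapped through 1 animal, Rhesus 4, whose cerebellar cortex library held 30.1 CPM where the other 7 held 163 to 209. Its vermis library held 174 CPM. Without the 3 libraries that stood apart the difference between CB and THA was 1.14. The call of KCND2 for CB was lost with DESeq2 and with DESeq2 size factors, so it rests near the 2-fold rule. KCND1 was 43.8, 48.1 and 72.5 CPM in CB against 11.6, 14.4 and 15.8 CPM in the cortex (1.91 ± 0.13, FDR 2.4e-27) and 17.9, 23.4 and 25.8 CPM in PON. CB exceeded PON by 1.28 ± 0.13 without overlap, and by 1.18 without the 3 libraries. Only PIT reached into the CB range, with 13.1, 18.7 and 44.96 CPM. KCND1 was lower than the cortex in none of the 15 groups and KCND2 in 4, with 1.16, 1.93 and 3.45 CPM in CC (-4.01 ± 0.29).

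Of the 105 pairs of the 7 silent subunits, 71 were lower than the cortex and 12 higher, beside the 12.2% and 12.3% of all gene pairs given above. KCNS1 was 22.04, 63.1 and 93.04 CPM in the cortex and was lower in all 15 other groups. It was also the member with the largest fall among those changed alike in 8 animals in 14 of the 15 groups, KCNV1 in CB being the exception. PA, the nearest to the cortex apart from HTHA, had 0.766, 1.53 and 4.10 CPM (log2FC -5.06 ± 0.50, FDR 3.8e-15), and AMY had 0.423, 1.41 and 3.67 CPM (-5.47 ± 0.52). Neither range reached that of the cortex.

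In the remaining groups other than HTHA no animal exceeded 1.77 CPM of KCNS1. The log2FC was -6.02 ± 0.53 in OB, -6.59 ± 0.57 in PON, -6.76 ± 0.58 in MO, -6.87 ± 0.58 in CC and -7.20 ± 0.55 in HIP. It was -6.98 in CB, -7.66 ± 0.61 in THA, -8.21 ± 0.65 in GP, -8.23 ± 0.65 in SN and -8.32 ± 0.60 in STR. In PIT and VTA every library held at most 3 counts, so only a bound can be given: KCNS1 was at least 231.6-fold lower in PIT and at least 203.5-fold lower in VTA than in the cortex.

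HTHA was 0, 0.354 and 54.4 CPM for KCNS1, and the fitted log2FC of -4.17 ± 0.49 rested on the library of Rhesus 6. Without that library the other 7 animals spanned 0 to 1.04 CPM and the log2FC was -7.09. The call of KCNS1 for the cortex held both ways, by 4.17 ± 0.49 over HTHA with the library and by 5.06 over PA without the 3 libraries. Other cortical members followed KCNS1 in this library. KCNH3 was 187 CPM in HTHA of Rhesus 6 and 9.67 to 16.9 CPM in the other 7 animals, and KCNV1 was 54.2 CPM against 1.79 to 4.11 CPM. Without the 3 libraries the log2FC in HTHA went from -3.12 to -4.33 for KCNH3, from -3.03 to -4.29 for KCNV1 and from -2.21 to -2.92 for KCNH1, and KCNA4 and KCNH5 were lower and KCNH6 higher by the 2-fold rule where they had not been. In MO KCNH2 became higher (0.92 with and 1.08 without the library of Rhesus 6).

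KCNS2, the second silent subunit called for the cortex, was 91.1, 110 and 125 CPM there. It was lower in all 15 other groups, but less steeply at the near end: AMY had 27.6, 53.3 and 67.1 CPM (log2FC -1.10 ± 0.29, FDR 0.0013), below the cortical range in 8 of 8 animals. At the far end PIT gave -8.79 ± 0.49. KCNV1 was 47.6, 62.4 and 76.5 CPM in the cortex and lower in 13 groups. AMY (21.6, 55.4 and 62.4 CPM) overlapped the cortex and was not called (-0.40 ± 0.32), and neither was PA (-0.75). In CB every KCNV1 library was at or under 3 counts (0, 0.0434 and 0.171 CPM), at least 242.1-fold lower than the cortex.

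The other 4 silent subunits each had a region above the cortex. KCNG1 was 37.3, 64.3 and 73.7 CPM in PA and 31.7, 55.3 and 80.4 CPM in AMY, against 13.1, 25.4 and 45.2 CPM in the cortex. Both ranges overlapped the cortical one, yet both were higher in 8 of 8 animals (log2FC 1.17 ± 0.31 in PA, and 1.11 ± 0.31 in AMY with FDR 0.0026). In MO KCNG1 spread from 5.29 to 208 CPM, its highest library being that of Rhesus 3, and was not called. KCNG2 was 5.35, 8.05 and 12.02 CPM in HIP against 1.69, 2.54 and 3.41 CPM in the cortex (1.60 ± 0.24, FDR 8.8e-09). The hippocampal range lay above the cortical one. It overlapped only those of CB, whose highest animal reached 6.17 CPM, and of AMY (2.52, 3.82 and 6.35 CPM), which HIP exceeded by 1.06 ± 0.25.

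KCNS3 was the member of the ventral midbrain: 30.2, 39.3 and 48.5 CPM in SN (1.86 ± 0.24, FDR 5.9e-11) and 17.6, 30.6 and 50.02 CPM in VTA (1.5 ± 0.24), against 8.98, 10.9 and 13.04 CPM in the cortex. Neither range overlapped the cortex, and the 2 groups overlapped each other. STR had the lowest mean, with 0.744, 0.958 and 1.64 CPM (-3.35 ± 0.28). KCNG4 was near the limit of detection in the cortex (0.0508, 0.160 and 0.214 CPM) and was higher in 7 groups. VTA had 0.785, 1.36 and 2.68 CPM (3.34 ± 0.42, FDR 1.2e-11), MO 0.165, 1.00 and 4.03 CPM (3.09 ± 0.42) and CB 0.656, 0.821 and 3.94 CPM (2.97 ± 0.40). Its libraries held few reads, 6 of 8 animals were higher in PON and 5 of 8 in HTHA, and no 2 neighbours in its order of groups differed.

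The KCNQ members gave no rise above the 2-fold rule. KCNQ5, a subunit of the M-current, was 264, 281 and 301 CPM in the cortex. PON (204, 269 and 346 CPM, log2FC -0.06 ± 0.33) and STR (218, 258 and 295 CPM, -0.12 ± 0.33) overlapped it and were not called. The other 13 groups were lower, down to 1.76, 6.97 and 9.70 CPM in THA (-5.50 ± 0.42) and 2.64, 3.82 and 5.92 CPM in CB (-6.04 ± 0.42). KCNQ3, the other M-current subunit in the list, did not fall in THA: it was 32.1, 63.3 and 73.7 CPM there and 26.5, 32.3 and 46.98 CPM in the cortex (0.64 ± 0.19, FDR 0.0031). In THA the M-current pair thus parted, KCNQ3 at its highest and KCNQ5 next to its lowest. KCNQ3 was lower in 8 groups, most in PIT (-2.87 ± 0.22). KCNQ1, best known from the heart, was 1.11, 1.44 and 1.86 CPM in the cortex and was called in no group. It ranged from 0.493, 0.726 and 1.10 CPM in CB (-0.89 ± 0.22) to 1.62, 2.47 and 3.88 CPM in OB (0.85 ± 0.21, FDR 0.0002). The KCNQ1 locus has a known antisense transcript and the strand setting of the counting is not given in the sources used here, so these counts may hold reads of both.

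In the EAG, ERG and ELK group, KCNH8 (ELK) had its largest rise in CC, the group richest in oligodendrocyte markers. It was 44.9, 68.6 and 107 CPM in CC against 4.20, 6.92 and 8.39 CPM in the cortex (log2FC 3.36 ± 0.17, FDR 9.1e-36). It was 36.7, 49.7 and 71.2 CPM in GP (2.89 ± 0.17). OB, with 46.3, 51.7 and 89.3 CPM (3.10 ± 0.17), and PIT, with 34.7, 48.1 and 53.2 CPM (2.77 ± 0.17), were also higher than the cortex. All 4 ranges lay above the cortex and overlapped one another, and neighbours in their order did not differ. Oligodendrocyte markers were high in CC and GP, 6.93 to 7.99 in OB and 1.25 to 2.18 in PIT. These markers were 10.65 to 11.51 in PON and 9.85 to 10.84 in SN, where KCNH8 was not called. They were 11.2 to 11.84 in VTA and 10.68 to 12.28 in MO, and their part was not tested. VTA (1.87), THA (1.46), HTHA (1.23) and MO (1.06) were higher by smaller log2FC, and PA alone was lower (2.28, 2.76 and 4.25 CPM, -1.24 ± 0.19).

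The ERG subunits KCNH2 and KCNH6, whose slow deactivation damps repeated firing, shared a rise in PIT. KCNH6 was 8.08, 14.8 and 32.7 CPM in PIT against 0.598, 0.875 and 1.46 CPM in the cortex (log2FC 4.28 ± 0.30, FDR 2.0e-25), the largest of the 45 rises. Every PIT level exceeded every level of the other groups, MO being next with 0.165, 1.36 and 6.32 CPM, and PIT exceeded MO by 2.94 ± 0.31 (2.73 without the 3 libraries). The rise of KCNH6 in MO over the cortex (1.34 ± 0.30) was seen in 5 of 8 animals. KCNH2 was 86.6, 106 and 160 CPM in PIT (1.25 ± 0.14), 87.0, 114 and 138 CPM in PON (1.21 ± 0.14, FDR 2.5e-13), 91.8, 109 and 135 CPM in THA (1.21) and 90.6, 108 and 133 CPM in OB (1.15), against 39.96, 49.8 and 55.7 CPM in the cortex. These 4 ranges overlapped one another and none reached down to the cortex. AMY (-1.02) and CC (-1.44) were lower. KCNH7, the third ERG member, rose nowhere: it was 6.04, 10.1 and 14.1 CPM in the cortex, matched in OB (2.34, 11.96 and 19.9 CPM, log2FC 0.03) and lower in 12 groups, most in CC (-5.05 ± 0.42).

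KCNH5, an EAG subunit, was 67.3, 82.3 and 112 CPM in THA against 11.4, 18.99 and 25.6 CPM in the cortex (2.28 ± 0.24, FDR 1.4e-14). PON followed with 27.7, 36.6 and 50.3 CPM (1.07 ± 0.24), and THA exceeded it by 1.2 ± 0.24 without overlap. The other EAG member, KCNH1, was 13.1, 28.2 and 40.9 CPM in the cortex, higher nowhere and lower in 12 groups. HIP (3.49, 15.9 and 23.8 CPM), PA and CB were not called for it, and SN was lowest (-6.73 ± 0.52). Among the ELK members, KCNH4 was 33.2, 48.1 and 60.4 CPM in STR against 11.9, 16.6 and 19.9 CPM in the cortex (1.52 ± 0.22, FDR 3.4e-09) and fell by 5.67 on the log2 scale in CB. KCNH3 was 236, 253 and 339 CPM in the cortex and 233, 374 and 485 CPM in OB, which overlapped and did not pass (0.46 ± 0.27), and it was lower in 10 groups, most in CB (-4.96 ± 0.32). The 3 ELK genes thus had their highest levels in CC, STR and OB.

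Within the cortex, the 31 sub-regions were summed into 5 lobes and each lobe was compared with the mean of the other 4 (FDR < 0.05, no fold threshold, since lobes differ little). The 5 comparisons share all cortical libraries. In the occipital lobe (3 sub-regions) 21 of 28 members (75.0%) were called, 9 higher and 12 lower, where 56.3% of all 17478 genes were called. The frontal lobe (10 sub-regions) had 9 higher and 8 lower, 60.7% against 44%. The limbic lobe (5) had 4 higher and 10 lower, 50% against 15.9%. The temporal lobe (4) had 8 higher and 5 lower, 46.4% against 25.7%, and the parietal lobe (9) had 5 higher and 4 lower, 32.1% against 9.64%. Of the 140 pairs of a member and a lobe 74 were called in all, and 38 without the animal as a block.

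KCNH8 again had the largest change. It was 16.8, 23.3 and 34.7 CPM in the occipital lobe and 2.77, 4.90 and 5.87 CPM over the other 4 lobes. The ranges stood far apart, and the log2FC was 2.41 ± 0.07 (n = 8 animals, FDR 7.3e-24). In the temporal lobe KCNH8 was 2.28, 4.19 and 6.09 CPM against 6.39, 9.58 and 13.02 CPM over the others (-0.79 ± 0.09, FDR 5.7e-08). It was lower in the frontal (-1.03) and limbic (-0.73) lobes too. In these comparisons the other lobes include the occipital lobe. The temporal, frontal and limbic means were alike, at 4.08, 3.74 and 4.28 CPM.

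The occipital lobe was higher in KCNS1 (0.95 ± 0.10), in the Shaw subunits KCNC1 (0.75 ± 0.04) and KCNC4 (0.55 ± 0.05) and in the axonal KCNA2 (0.66 ± 0.06), each in 8 of 8 animals. It was lower in KCNG1 (-1.82 ± 0.13), KCNB2 (-1.34 ± 0.07), KCNA3 (-0.98 ± 0.08) and KCNV1 (-0.74 ± 0.08), also in 8 of 8. The third Shaw subunit, KCNC2, did not pass the test there (0.01 ± 0.06, FDR 0.93). KCNG4 was lower by 2.04 ± 0.42 at levels under 1 CPM.

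The frontal lobe was led by KCNB2, which was 11.1, 14.2 and 15.8 CPM there and 7.43, 9.14 and 10.6 CPM over the others, without overlap (0.74 ± 0.06, FDR 2.1e-12). KCNG1, a silent subunit that joins Shab channels, was higher in the frontal lobe too (1.01 ± 0.10), and KCNC1 was lower (-0.51). In the parietal lobe KCNC1 had the lowest FDR: 141, 176 and 197 CPM against 106, 140 and 145 CPM (0.45 ± 0.04, FDR 8.9e-09). In the limbic lobe it was KCNC1 again, in the other direction: 78.7, 118 and 127 CPM against 122, 154 and 165 CPM (-0.36 ± 0.04, FDR 3.1e-07). These parietal and limbic ranges touched those of the other lobes in part of the animals, and all 8 animals changed alike. The temporal lobe was higher in KCNV1 (0.55).

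The lobes also differed in marker levels. PVALB was 6.71 to 7.13 as log2(CPM + 1) in the occipital, 5.53 to 6.11 in the parietal, 4.05 to 5.12 in the frontal, 4.50 to 5.08 in the temporal and 4.02 to 5.58 in the limbic lobe. Oligodendrocyte markers were 7.49 to 8.13 in the occipital and 6.43 to 7.03 in the frontal lobe, neuronal markers 9.41 to 9.57 and 9.09 to 9.25, and astrocyte markers 7.43 to 7.89 and 8.10 to 8.47. In the parietal lobe oligodendrocyte markers were 7.31 to 7.84, and KCNH8 was not called there (log2FC 0.15 ± 0.08, FDR 0.311). Its parietal level was 4.13, 7.14 and 9.25 CPM, against 5.93, 9.16 and 11.7 CPM over the others. By CPM, 0 of 8 animals had the higher level in the parietal lobe. The fit averages the other lobes on the log scale, and their CPM is an arithmetic mean that includes the occipital lobe. The part of these marker levels in the lobe calls was not tested.

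**Figure D4:**
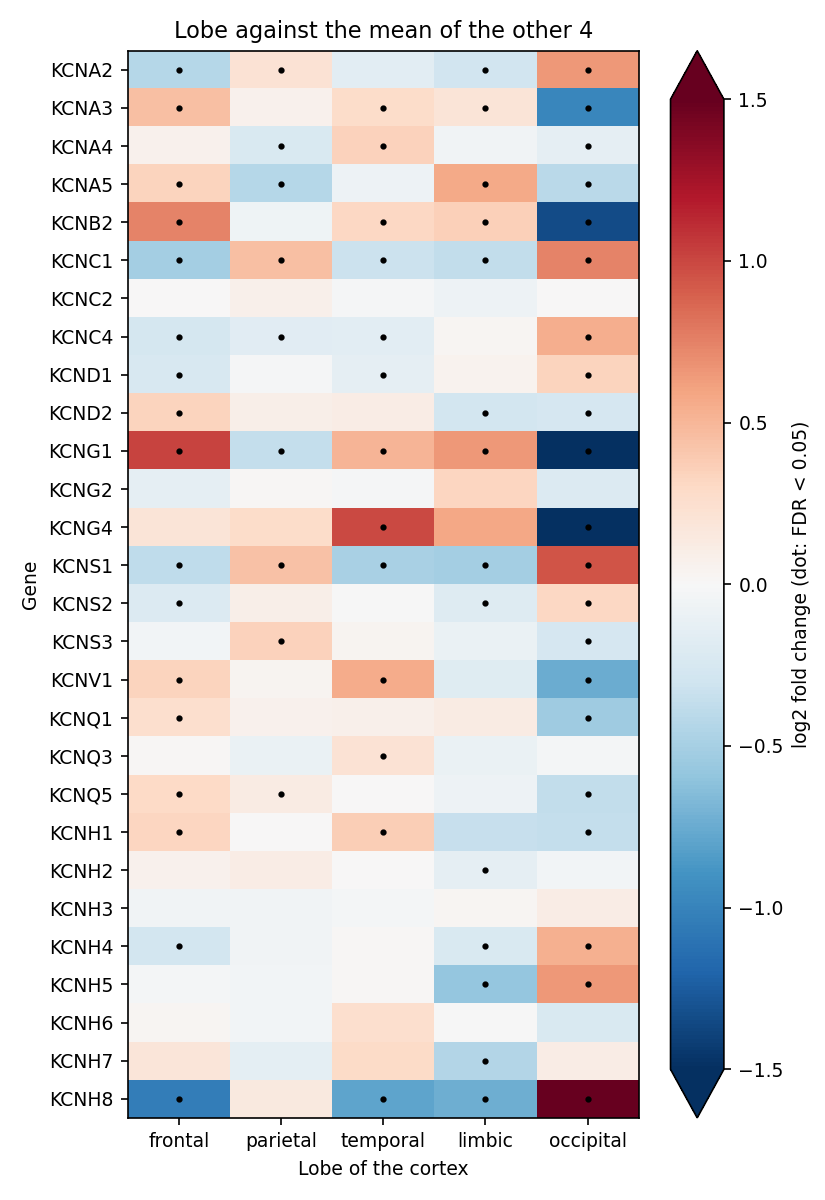
The log2 fold change of each member (rows) in each cortical lobe (columns) against the mean of the other 4 lobes, with a dot where FDR < 0.05. The occipital column holds the strongest colours, with KCNH8 at 2.41, KCNG4 at -2.04 and KCNG1 at -1.82.

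At the level of single cortical sub-regions the members varied more by place than genes did in general. The variance of log2(CPM + 1) over the cortical libraries was divided into shares between animals, between sub-regions and a remainder. The median share between sub-regions was 39.4% for the members and 19.5% for 14392 genes of at least 1 CPM, and the median share between animals was 20.2% and 28.5%. In 19 of 28 members, against 38.7% of all genes, sub-regions took the larger share. These are descriptions with no test.

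KCNC1 had the highest share between sub-regions, 85.9%, from a mean of 221 CPM in the inferior postcentral gyrus to 58.1 CPM in the temporal polar gyrus. KCNH8 followed with 83.0%. It was 22.1, 29.5 and 43.2 CPM in the posterior superior occipital gyrus, 14.2, 20.9 and 43.8 CPM in the inferior occipital gyrus and 0.266, 1.62 and 2.98 CPM in the anterior cingular gyrus. The posterior occipital and cingular means differed 19.5-fold and the ranges were far apart. The cuneus gyrus, which is counted with the parietal lobe here, held 6.05, 10.0 and 24.4 CPM of KCNH8 and overlapped the anterior superior occipital gyrus (6.81, 16.1 and 27.8 CPM).

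KCNS1, the gene called for the cortex as a whole, was not uniform within it. It was 71.4, 113 and 157 CPM in the anterior superior occipital gyrus and 2.67, 6.01 and 10.3 CPM in the temporal polar gyrus, a 16.9-fold difference of means. The temporal polar level thus lay nearer to that of PA (0.766, 1.53 and 4.10 CPM) than to the cortical mean. KCNB2 (79.6% between sub-regions) ran from 17.5 CPM in the anterior superior frontal gyrus to 4.15 CPM in the inferior occipital gyrus, and KCNG1 (72.2%) from 62.9 CPM in the ventromedial prefrontal cortex to 7.14 CPM in the same occipital gyrus. KCNA4 ran from 93.5 CPM in the temporal polar gyrus to 36.5 CPM in the superior precentral gyrus (69.2%), KCNQ5 from 358 to 198 CPM (69.0%) and KCNA3 from 142 to 50.4 CPM (67.8%). The members that varied most between animals were KCNH1 (41.3%), KCNH3 (41.2%) and KCNQ3 (40.2%).

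**Figure D5:**
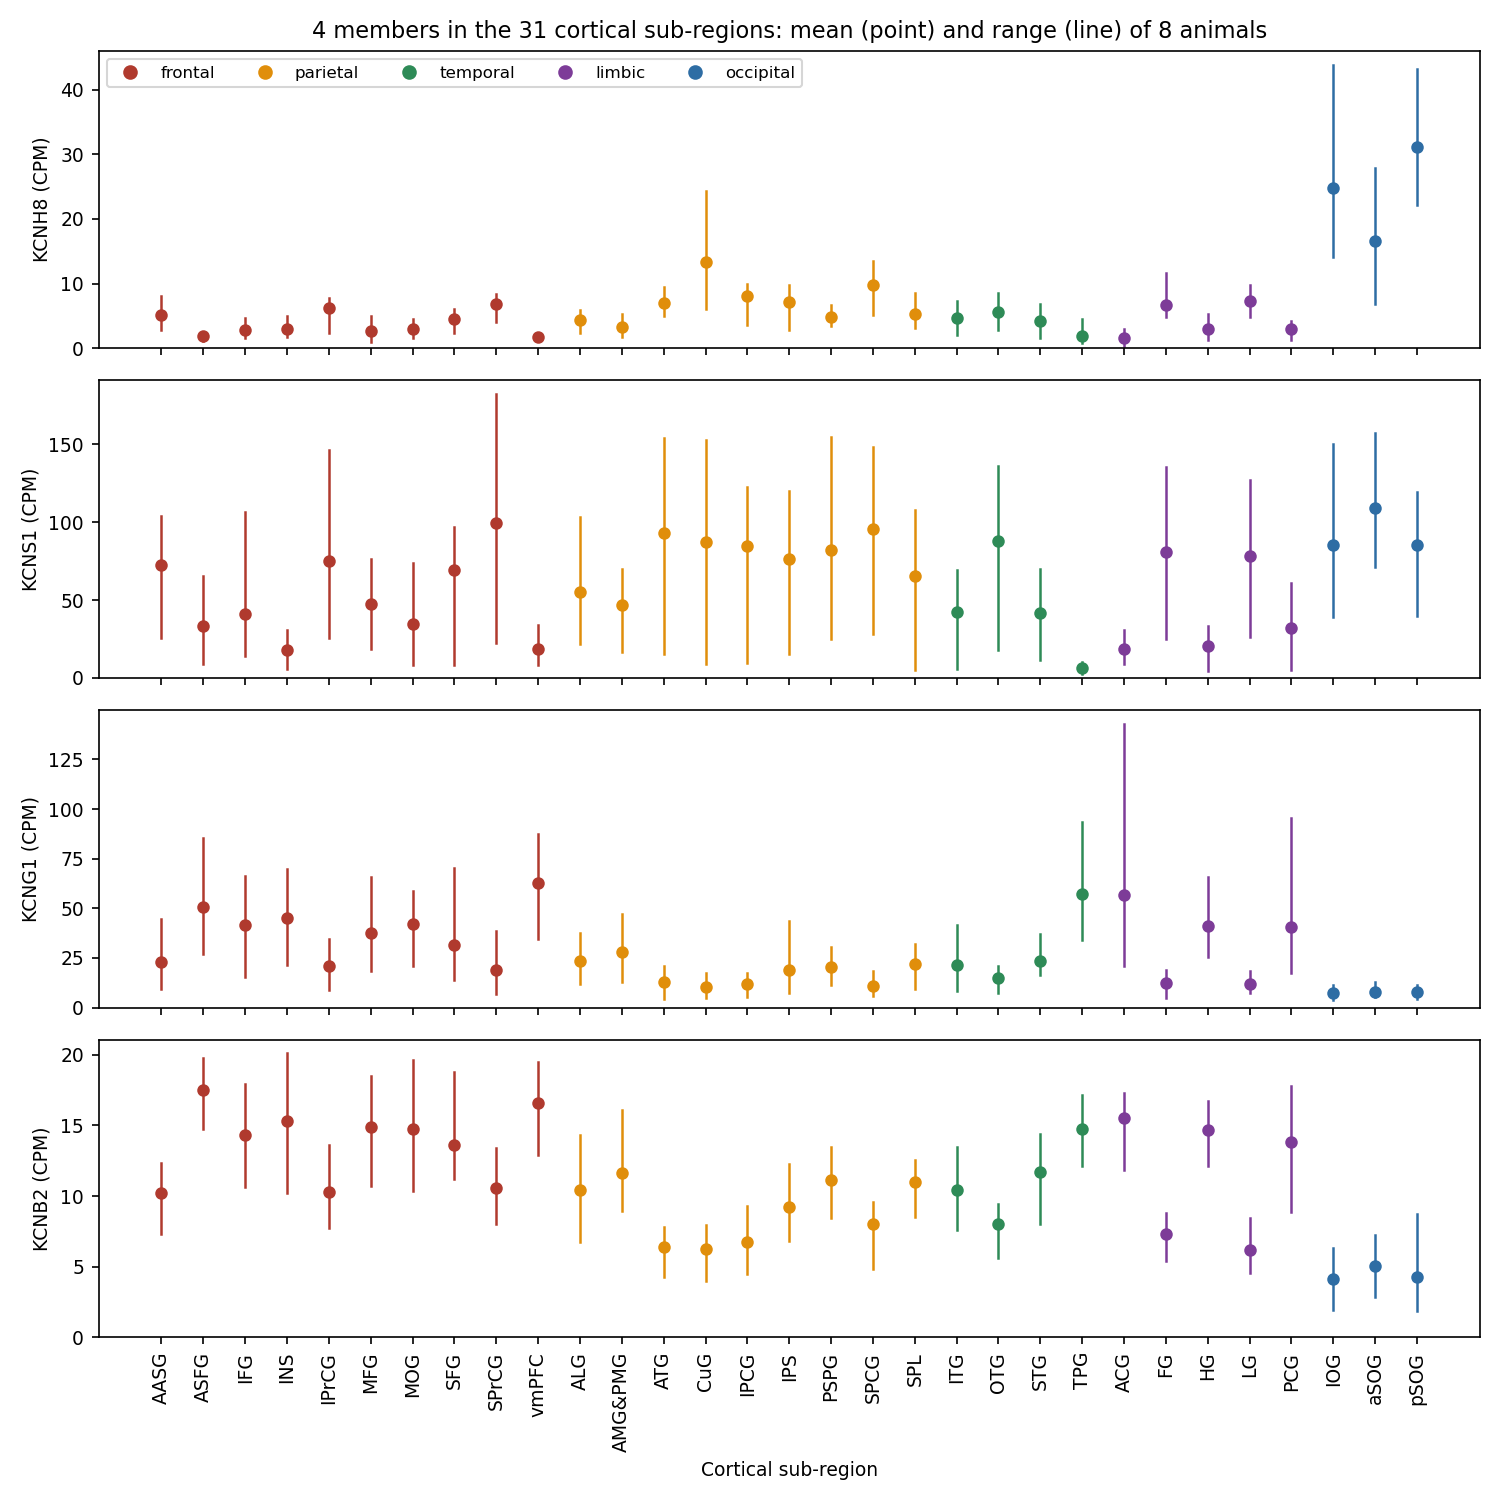
CPM of KCNH8, KCNS1, KCNG1 and KCNB2 in the 31 cortical sub-regions, coloured by lobe, with the mean of 8 animals (point) and their range (line). KCNH8 stands out in the occipital sub-regions, at a mean of 31.1 CPM in the posterior superior occipital gyrus, KCNB2 runs the other way, and KCNS1 is lowest in the temporal polar gyrus at 6.45 CPM.

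Sub-regions of the hippocampus, striatum and cerebellum were compared with one another at an FDR < 0.05 and a fold above 2. In HIP 25 members could be tested and 1 was called, where 0.683% of genes were. KCNH4 was 6.21, 13.2 and 20.9 CPM in the dentate gyrus and 2.18, 5.16 and 13.6 CPM in CA3, ranges that overlapped, but the dentate gyrus was higher in 8 of 8 animals (log2FC 1.23 ± 0.25, FDR over the sub-regions 0.00028). Oligodendrocyte markers were lower in the dentate gyrus (6.52 to 7.31) than in CA3 (7.70 to 9.14) and CA1 (7.58 to 9.03), and choroid plexus markers were 3.00 to 5.59, 2.16 to 5.68 and 2.04 to 3.21 in the same order, and their part was not tested. In STR 25 were tested and 2 were called, where 3.21% of genes were. KCNC4 was 11.3, 15.9 and 21.9 CPM in the accumbens nucleus and 4.96, 6.43 and 10.4 CPM in the caudate nucleus (1.24 ± 0.16, FDR 4.0e-08), without overlap. Markers of the neocortical layers were 0.447 to 4.47 in the accumbens nucleus and 0.418 to 0.883 in the caudate nucleus, and their part was not tested. KCNH8 was 7.99, 16.6 and 23.6 CPM in the putamen and 5.37, 6.65 and 10.3 CPM in the accumbens nucleus (1.19 ± 0.16), with some overlap. Oligodendrocyte markers were also highest in the putamen (9.44 to 10.2, against 7.14 to 8.69 in the accumbens nucleus). Without the fold rule 13 members passed the FDR in HIP and 19 in STR, 52% and 76% of those tested, against 32.7% and 57% of all genes. Between the cerebellar cortex and vermis edgeR called 0 of 20 members (0.225% of genes), with 8 (40%) at an unadjusted p < 0.05 against 13.8% of all genes, and DESeq2 called KCNG4 alone, for the cerebellar cortex.

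Age and sex were compared in each region group with 4 animals against 4 (edgeR, FDR < 0.1 and a fold above 2, the other factor as a covariate). Of 392 pairs, 20 to 28 members in a region group, 0 were called for age and 0 for sex, where 0.0153% and 0.103% of all gene and region group pairs were. At an unadjusted p < 0.05 there were 38 pairs for age (9.69%, against 5.73% of all pairs) and 16 for sex (4.08%, against 3.56%). The lowest FDR was 0.25 for age, shared by KCNH1 and KCND2 in PA, and 0.22 for sex, shared by KCND1, KCND2, KCNH5 and KCNH7 in PIT. DESeq2 called 2 pairs for age, KCNG1 in MO and KCNH1 in PA, and 2 for sex, KCNG1 in MO and KCND2 in PIT. For KCNG1 in MO the library of Rhesus 3 stood at 208 CPM against a median of 16.6 CPM, and DESeq2 was not run without it.

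The alpha subunits work with auxiliary proteins, and 12 of 17 listed genes of these were matched and tested against the cortex in the same fit. Of 180 pairs 16 were higher and 70 lower, on the same background shares of genes as the members. The Kv beta subunit KCNAB2 fell by 4.25 on the log2 scale in PIT and the KChIP KCNIP2, a partner of Shal channels, by 4.22. CNTNAP2, which holds Shaker channels at the juxtaparanodes of myelinated axons, fell by 4.21 in CC. CNTN2, its partner at the same site and made by oligodendrocytes as well, went the other way, with a mean of 2894 CPM in CC against a cortical mean of 205 CPM (log2FC 3.82 ± 0.18), and was higher in 7 groups. KCNAB1 was higher in STR (2.22 ± 0.22), where the Shaker subunit KCNA4 was called, but the Kv beta subunit KCNAB2 was lower there (-1.56). The KChIP KCNIP1 was higher in OB (1.97) and in CB (1.06), where both Shal members were called. KCNIP2 (-1.41) and DPP10 (-2.135) were lower in CB, and KCNIP4 and DPP6 were not called there. KCNIP4 was lower in 12 groups and KCNAB2, DPP10 and KCNIP2 in 10 each. KCNAB3 was called in none, and its row rests on a gene name on which the reference and study tables differ.

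Over the 16 region groups the levels of some members ran together, given here as Pearson's r of log2(mean CPM + 1) for description, since the groups share animals and cell types. The closest were KCNV1 and KCNH3 (0.91), the axonal KCNA2 and the Shaw subunit KCNC1 (0.90), KCNH3 and KCNH4 (0.85) and KCNS2 and KCNV1 (0.84). The most opposed were KCNG4 and KCNH3 (-0.72). The median r was 0.25 over 62 pairs of the same subfamily and 0.23 over 316 pairs of different subfamilies. With the neuronal marker list KCNA2 had an r of 0.85 and KCNC1 of 0.80. KCNH8 had -0.76 with the neuronal and 0.18 with the oligodendrocyte list, and KCNH6 -0.45 and -0.64.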

How the data were processed

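RNA-seq counts of 51 brain sub-regions of 8 rhesus macaques were used. As the methods and the submitters' processing notes give it, the authors removed ribosomal RNA, checked and trimmed reads (FastQC 0.11.4, Trim Galore 0.4.4), aligned them with HISAT2 2.0.5 against Mmul 8.0.1 and used HTSeq 0.6.1 to count reads per Ensembl gene. The strand and overlap options are not given in the sources used here. The deposited values are raw counts, not normalized. As in the study, the midbrain was not used, and the 33 ATAC-seq samples were not used here. No 2 libraries held the same counts.

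Counts were summed within each animal by region group, lobe or sub-region and tested with edgeR 4.0.16 (R 4.3.3, limma 3.58.1): TMM scaling, filterByExpr, quasi-likelihood F test, Benjamini-Hochberg FDR over all genes tested. SEs were derived as the size of the log2FC over the root of its F statistic. The animal, which is the replicate number of the labels and so pairs the samples, was a block, except for age and sex, where the other factor was a covariate. CPM used TMM over all libraries together, and a region group's level in an animal is the mean over its sub-regions. Python 3.11.15 served for tables (pandas 2.3.3, numpy 2.4.6, scipy 1.17.1) and figures (matplotlib 3.10.9). The procedure was tested on simulated counts. A group with every library at or under 3 counts was taken as at the floor, and folds against it are lower bounds. At 7784678 counts or more per library, members near 1 CPM rest on few reads.

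Values per animal are given for members called for 1 region group or sub-region, for the member that rose and the one that fell most from the cortex in each region group (at least 1 CPM in the higher group, alike in 8 animals) and for the member with the lowest FDR in each lobe. Further members were given values after their levels were seen. The members and all lists were chosen with earlier results of these data known. Alternatives were DESeq2 1.42.0, its size factors, a detection rule (a count above 1 in at least 3 samples), no block, other folds, 51 separate sub-regions, and leaving out libraries or animals, and those without the 3 libraries that stand apart and without Rhesus 4 in the lobes were chosen after seeing the data.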

Additional observations from a re-analysis of the deposited data

Results flagged for a closer look

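The 37 levels by region group that the rule for values per animal named were examined for single animals that stood apart. Of these, 7 had 1 animal far from the other 7 (Dixon's test at the 95% level), where chance gives about 1 in 20. The further levels given above were not examined in this way. In HTHA, Rhesus 6 held 54.4 CPM of KCNS1 against a median of 0.354 CPM, in the library that stood nearer to the superior temporal gyrus. In CB, Rhesus 4 held 102 CPM of KCND2 against a median of 175 CPM, through its cerebellar cortex library alone. KCNG4 in CB was 3.94 CPM in Rhesus 11 against a median of 0.821 CPM, and both of its cerebellar libraries were the highest of their sub-region (4.20 and 3.68 CPM). KCNS1 was 4.10 CPM in PA and 1.68 CPM in PON of Rhesus 11, against medians of 1.53 and 0.523 CPM, and 0.904 CPM in STR of Rhesus 3 against 0.103 CPM. KCNH8 was 89.3 CPM in OB of Rhesus 7 against a median of 51.7 CPM. The causes were not tested.

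For 2 members, 1 contrast moved in opposite directions in different region groups, without overlap between the 4 animals of each side, and the difference between the region groups was not tested. KCNC4 was higher in mid-aged than in young animals in the cortex (log2FC 0.225) and lower in HTHA (-0.18) and MO (-1.60). In MO the mid-aged animals included the library of Rhesus 6 at 5.78 CPM. In HTHA they included the library of Rhesus 6 at 60.2 CPM, where the other 7 animals held 72.4 to 85.5 CPM. KCNH5 was lower in females than in males in CB (-0.57), at 0.773 to 1.49 against 1.51 to 1.87 CPM. It was higher in females in PIT (1.62), at 1.70 to 2.43 against 0.489 to 0.977 CPM, and such levels rest on few reads. None of these 5 log2FC passed the FDR for age or sex. Such opposite directions were seen in 1 of 28 members (3.57%) for age and 1 for sex, against 1.78% and 0.521% of all genes tested. Pairs without overlap made up 4.34% of the member pairs for age and 1.79% for sex, against 3.8% and 2.0% over all genes.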

How the results depend on the processing

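The calls against the cortex changed little with the tool, scaling, filter or libraries: 40 to 50 pairs were higher and 211 to 226 lower over 7 such settings, against 45 and 215. With DESeq2 size factors 256 of the 260 calls were kept, and 4 were lost (KCNH2 in AMY, KCNC4 in OB, KCNS3 in PON and KCNH6 in STR). The rise of KCNH6 in OB was lost without the block, without the HTHA library of Rhesus 6 and with the detection rule, which shifted the median of all genes by up to -0.17 on the log2 scale, in PIT, and also lost KCNA5 in HIP and VTA, KCNH8 in MO and KCNH5 in PON. At a fold above 4, 17 pairs stayed higher and 143 lower, and 9 and 32 of the auxiliary subunits, and 2 members (KCNS1 and KCNH6) stayed called for 1 region group. Without the animal as a replicate block the lobe calls fell to 38 from 74, while the calls against the cortex were 45 higher and 216 lower and no other count moved by over 1.5 times. Without Rhesus 4 the lobes gave 73 calls. At a fold above 1.5 the sub-regions of structures gave 12 pairs of a member and a structure in place of 3, with KCNC4 and KCNA3 in both HIP and STR. DESeq2 called 2 pairs for age and 2 for sex where edgeR called 0. Leaving out 1 animal in turn gave 0 to 2 pairs for age and 0 to 4 for sex. The calls appeared without Rhesus 7 (KCNH1 in PA and KCNH7 in THA for age, and KCNC1, KCNH7, KCND2 and KCNH5 in PIT for sex) or without Rhesus 8 (KCNH6 in PIT for age). The causes were not tested. The median share of variance between cortical sub-regions was 39.2% with a pseudocount of 0.1 and 38.4% without TMM, against 39.4%. Depth limits KCNG4, KCNA5, KCNQ1 and KCNH6, which lie near or under 1 CPM in the cortex.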
